A study of Homo sapiens with 12 samples.

Results

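Cyclins and their kinases form the engine that drives a cell through its division cycle, and 10 of their genes are described here: the D-type cyclins CCND1, CCND2 and CCND3, the E-type cyclins CCNE1 and CCNE2, cyclin A2 (CCNA2), the B-type cyclins CCNB1 and CCNB2, and the kinases CDK1 and CDK2. They were picked by gene symbol from a raw count table of 57500 genes, in which each symbol had 1 row. All 10 passed the filter on low counts that left 16251 genes for testing. The RNA came from MRC5 cells, a line of human fibroblasts from embryonic lung, in 4 groups of 3 libraries. The groups were proliferating cells (Prol), cells made senescent by irradiation with 20 Gy of X-rays (Sen(IR)), irradiated cells kept in 100 μM UK5099, an inhibitor of the mitochondrial pyruvate carrier (Sen(IR)+UK5099), and irradiated cells kept in CTPI2, an inhibitor of the mitochondrial citrate carrier SLC25A1 (Sen(IR)+CTPI2). Per the methods, irradiated cells in general were collected 10 to 12 days after the X-rays, and inhibitors were added from day 1 and kept for 12 days. Whether treated and untreated irradiated cells were collected on the same day is not given. Which CTPI2 dose was sequenced, 15 or 30 μM, is not given in the sources used here.

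A cyclin binds a cyclin-dependent kinase (CDK) and switches it on. D-type cyclins partner CDK4 and CDK6 early in G1, E-type cyclins partner CDK2 at the entry into DNA replication, cyclin A2 partners CDK2 and then CDK1, and B-type cyclins partner CDK1 to drive mitosis. Most of these genes are transcribed in a set part of the cycle, under E2F factors for the G1/S genes and under the MuvB complex with B-MYB (MYBL2) and FOXM1 for the G2/M genes, whereas D-type cyclins respond mainly to growth signals. Senescence is a lasting exit from the cycle.

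In brief, 6 of the 10 transcripts (CCNE2, CCNA2, CCNB1, CCNB2, CDK1 and CDK2) fell by 5.05-fold to 18.6-fold after irradiation, the 3 D-type cyclins rose, and CCNE1 did not pass the fold limit. With UK5099, 7 of the 10 were lower than in Sen(IR): the same 6, of which CDK1 fell most, to 0.842% of its Prol level, and CCND3, which came back to 102% of its Prol level. CTPI2 gave no called change in any of the 10, and called few genes of any kind. Of all genes tested, 22.4% were called lower and 24.8% higher after irradiation. With UK5099 these shares were 12.1% and 8.76%, and with CTPI2 0.148% and 0.0185%, both against Sen(IR). Calls needed both an absolute log2 fold change over 0.5 and a p under 0.05 after Benjamini-Hochberg adjustment over all genes tested.

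Promoter letters linked to G1/S and G2/M control were searched in the RefSeq promoter windows (GRCh38.p14), which run from 250 bases before to 50 after a transcription start and were given for 6 of the 10 genes (CCND3, CCNE1, CCNA2, CCNB1, CCNB2 and CDK1). The motifs were CCAAT (bound by NF-Y), the letters TTTGAA and TTCGAA of the cell-cycle homology region (CHR, bound by MuvB), and the E2F letters TTTGGCGC, TTTCCCGC, TTTCGCGC and TTTGCCGC, all on both strands. The sequences of 4 of the genes that fell together are shown from base -170 to base -21 relative to the start, read on the gene's own strand, with the CCAAT and CHR letters in capitals (ATTGG is CCAAT on the other strand). The windows are chr5:69166980-69167129 (plus strand) for CCNB1, chr15:59104976-59105125 (plus) for CCNB2, chr10:60778161-60778310 (plus) for CDK1 and chr4:121823904-121824053 (minus) for CCNA2.
CCNB1: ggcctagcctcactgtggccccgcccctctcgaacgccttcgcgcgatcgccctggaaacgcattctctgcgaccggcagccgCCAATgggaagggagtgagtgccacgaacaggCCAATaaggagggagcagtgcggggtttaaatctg
CCNB2: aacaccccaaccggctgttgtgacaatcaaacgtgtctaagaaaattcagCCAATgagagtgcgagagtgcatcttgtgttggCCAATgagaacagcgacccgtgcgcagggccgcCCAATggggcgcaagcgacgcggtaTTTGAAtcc
CDK1: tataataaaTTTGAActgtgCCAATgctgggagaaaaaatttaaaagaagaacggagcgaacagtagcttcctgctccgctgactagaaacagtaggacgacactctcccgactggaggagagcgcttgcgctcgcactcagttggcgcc
CCNA2: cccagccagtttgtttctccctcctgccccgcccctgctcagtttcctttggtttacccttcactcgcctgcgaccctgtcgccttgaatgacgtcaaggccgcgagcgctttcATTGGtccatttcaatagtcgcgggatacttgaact
Within the full windows, CCNB2 held 4 CCAAT matches, with first bases at -244, -120, -87 and -54, and a CHR match at -29. The CCNB1 window held 2 CCAAT matches, at -87 and -55, and that of CCNA2 held 1, at -56. For CDK1 the CHR letters lay at -161 and CCAAT at -150, with an E2F match at 20 bases past the start, just outside the stretch shown. A RefSeq start of CDK1 further downstream, at base 60778478, gave a window with 3 CHR, 2 CCAAT and 1 E2F matches. It overlaps the CDK1 window described above, and its E2F match is the same site, counted in both. Of the 3 CCND3 windows, 2 held 1 CCAAT match each and the other held none of the letters, and the CCNE1 window held none. Among all 35116 promoter windows of the table, 34.6% held CCAAT, 16.4% the CHR letters and 3.31% the E2F letters. Only the letters named above were searched, so a window without a match, such as those of CCNB1 and CCNA2 for CHR, can still hold another form. These matches describe the letters in a window and say nothing of binding.

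The D-type cyclins were the members that rose. CCND1 (chr11:69641156-69654474, plus strand, GRCh38), the major G1 cyclin of fibroblasts, stood at 1164, 877 and 1077 CPM (counts scaled to a common library size) in Prol and at 3348, 3371 and 3210 CPM in Sen(IR). All irradiated libraries were above all Prol libraries, a 3.18-fold rise (log2 fold change 1.67, SE 0.0779, adjusted p 1.39e-14). CCND2 (chr12:4269771-4305353, plus strand) went from 13.7, 17 and 18.3 CPM to 247, 272 and 258 CPM. At 15.8-fold this was the largest rise among the members (log2 fold change 3.98, SE 0.0901, adjusted p 6.46e-20), and 98.8% of the genes tested had a lower or equal log2 fold change. CCND3 (chr6:41934934-42050357, minus strand) moved least of the D-type cyclins, from 78.9, 73.8 and 88.7 CPM to 143, 139 and 138 CPM. Its 1.74-fold rise also separated every library of the groups (log2 fold change 0.80, SE 0.0603, adjusted p 7.31e-11). Of all genes tested, 24.8% were called higher in this comparison and 22.4% lower, against 3 higher and 6 lower among the 10 members. Groups did not overlap for 9 of the 10 members and for 70.9% of all genes tested.

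The E-type cyclins, activators of CDK2, parted ways. CCNE1 (chr19:29811991-29824312, plus strand) measured 12.8, 8.67 and 11 CPM in Prol and 14, 13.2 and 12 CPM in Sen(IR). These groups overlapped, and the log2 fold change of 0.27 (SE 0.115, 95% interval 0.032 to 0.51, adjusted p 0.0418) lay below the fold limit. CCNE2, on chromosome 8, dropped from 31.3, 22.5 and 27.7 CPM to 4.85, 5.83 and 5.49 CPM, a 5.05-fold fall (log2 fold change -2.34, SE 0.144, adjusted p 2.08e-12). In TPM, a unit like CPM that also divides by exon length so that genes can be compared, CCNE1 made up 41.5% ± 0.751 (SD, n = 3) of the E-type sum in Prol and 81.2% ± 2.25 in Sen(IR). Thus CCNE2 was the higher of the pair in every Prol library and CCNE1 in every Sen(IR) library. CCNE2 shares 37.1% of its exon bases with other annotated genes on the opposite strand, among them INTS8, a subunit of the Integrator complex, and the strand setting of the counting is not given in the sources used here. INTS8 itself was also lower in Sen(IR), at 34.4 against 58.2 CPM (log2 fold change -0.76, adjusted p 1.46e-10), and its part in the CCNE2 value was not tested.

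The S-phase and mitotic cyclins fell further than CCNE2. CCNA2 (chr4:121816444-121823883, minus strand), needed for DNA replication and entry into mitosis, stood at 203, 183 and 216 CPM in Prol and at 12.7, 10.7 and 13.7 CPM in Sen(IR). That is a 16.2-fold fall (log2 fold change -4.02, SE 0.0893, adjusted p 4.82e-20). CCNB1 (chr5:69167135-69178245, plus strand), the main mitotic cyclin, went from 245, 226 and 269 CPM to 25.4, 25.5 and 25.3 CPM, with a coefficient of variation of 0.447% between the Sen(IR) libraries. Its fall was 9.72-fold (log2 fold change -3.28, SE 0.0706, adjusted p 2.75e-20). CCNB2 (chr15:59105126-59125045, plus strand), its relative at the Golgi, went from 87, 82.9 and 96.7 CPM to 8.45, 6.68 and 7.11 CPM. The fall of 12-fold (log2 fold change -3.58, SE 0.0973, adjusted p 1.09e-18) was close to that of CCNB1, and CCNB1 kept most of the B-type TPM, with 75.9% ± 0.3 in Prol and 79.5% ± 1.99 in Sen(IR). CCNA2 shares 9.24% of its exon bases with EXOSC9, a subunit of the RNA exosome on the opposite strand, which was itself lower in Sen(IR) (log2 fold change -2.20, adjusted p 8.11e-16), and its part in the CCNA2 value was not tested. CCNB1, CCNB2, CCNE1 and CDK1 share no exon base with another gene.

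Both kinases fell, CDK1 by more than CDK2. CDK1 (chr10:60778331-60794852, plus strand), the kinase of mitosis, stood at 165, 134 and 167 CPM in Prol and at 8.5, 7.16 and 9.37 CPM in Sen(IR). It had the largest fall of the 10, 18.6-fold (log2 fold change -4.22, SE 0.119, adjusted p 2.12e-18). CDK2 (chr12:55966781-55972789, plus strand), the kinase of the G1/S step, went from 162, 129 and 161 CPM to 23.1, 23.7 and 23.6 CPM, a 6.42-fold fall (log2 fold change -2.68, SE 0.0781, adjusted p 3.71e-18). In Prol the kinases were level, with 0.976 ± 0.0117 CDK2 TPM per CDK1 TPM (SD, n = 3). In Sen(IR) the ratio was 2.87 ± 0.419, and its lowest library, at 2.53, was above the highest Prol library, at 0.988. In bulk RNA, fewer cycling cells and less of a transcript in each cell cannot be told apart. The median log2 fold change was -2.51 over the members and 0.014 over all genes tested.

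**Figure D1:**
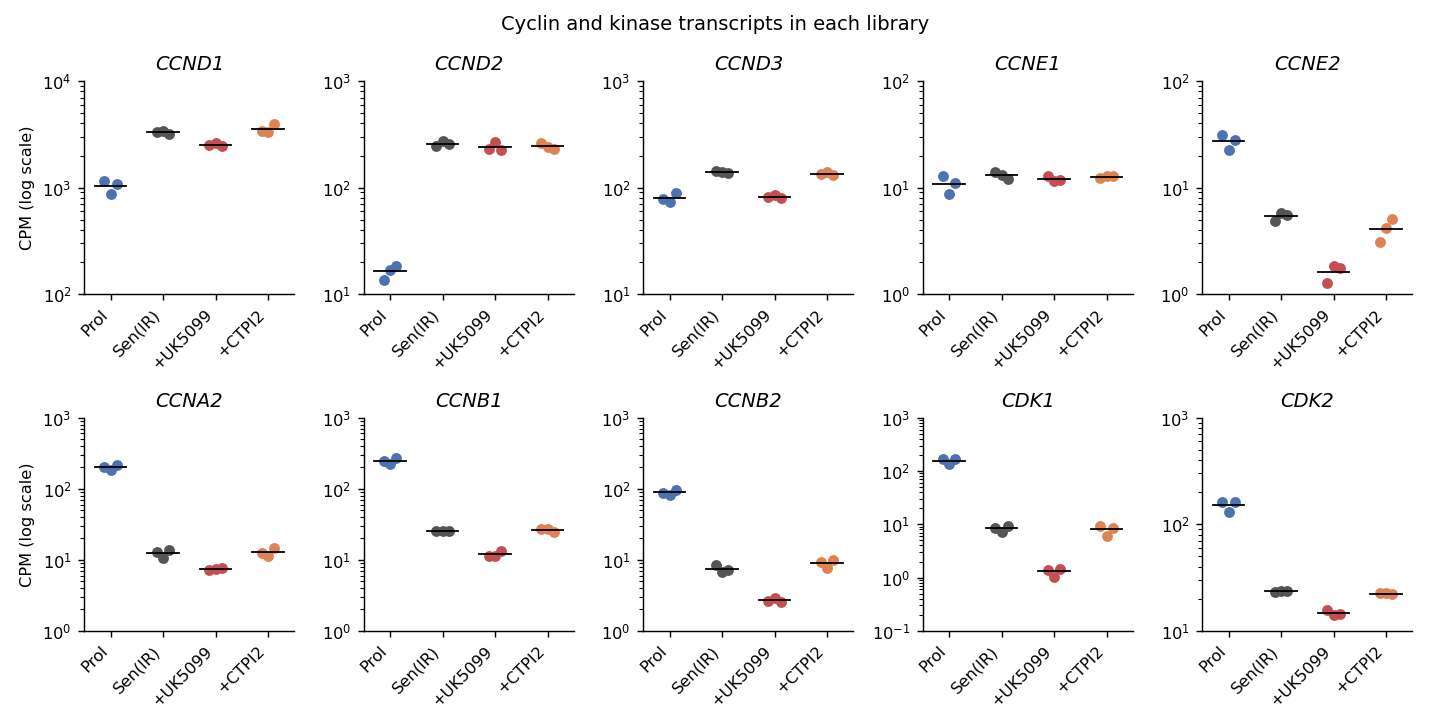
CPM of each of the 10 genes (log scale, a different range in each panel) by group, with 1 point per library and a line at the mean of 3. CCNE2, CCNA2, CCNB1, CCNB2, CDK1 and CDK2 sit far below Prol in the irradiated groups and lowest with UK5099, CCND1 and CCND2 sit above Prol in all irradiated groups, and CCNE1 overlaps throughout.

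These shifts rearranged the order of levels per length. In Prol the order by mean TPM was CCND1 (904 ± 126.9, SD, n = 3), CCNB1 (420 ± 30.58), CCNA2 (302.3 ± 21.67), CDK1 (164.3 ± 18.35), CDK2 (160.4 ± 19.44), CCNB2 (133.6 ± 8.727), CCND3 (57.83 ± 4.616), CCNE2 (25.6 ± 4.198), CCNE1 (18.26 ± 3.544) and CCND2 (8.467 ± 1.127). The neighbours CDK1 and CDK2, CDK2 and CCNB2, and CCNE2 and CCNE1 overlapped between libraries in this order. In Sen(IR) the D-type cyclins held the first 3 places, with CCND1 at 2937 ± 55.7 TPM, CCND2 at 137 ± 5.957 and CCND3 at 102.7 ± 2.019. CCND2 thus moved from the lowest of the 10 to the place behind CCND1. Below them CCNB1 stood at 44.09 ± 0.2062 TPM, CDK2 at 25.52 ± 0.3927, CCNE1 at 22.46 ± 1.625, CCNA2 at 19.02 ± 2.546, CCNB2 at 11.38 ± 1.434, CDK1 at 9.023 ± 1.276 and CCNE2 at 5.18 ± 0.4667, with CCNE1 and CCNA2, and CCNB2 and CDK1, overlapping. Sen(IR)+CTPI2 had the same order as Sen(IR). In Sen(IR)+UK5099, CCNE1 (20.93 ± 1.7 TPM) and CCNB1 (20.83 ± 1.972) overlapped in the places behind the D-type cyclins, and CDK1 (1.428 ± 0.2834) was last, overlapping CCNE2 (1.562 ± 0.2569).

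The summed TPM of the 8 cyclins was higher in every Sen(IR) library (3216 to 3311) than in any Prol library (1661 to 2000.0), and CCND1 carried this. Its share of the sum was 48.2% ± 2.52 (SD, n = 3) in Prol and 89.6% ± 0.204 in Sen(IR), with 90.1% ± 0.287 under UK5099 and 90.4% ± 0.944 under CTPI2. CCNA2 held 16.2% ± 0.67 of the sum in Prol and 0.581% ± 0.0856 in Sen(IR). Per CCNA2 TPM there were 2.98 ± 0.284 CCND1 TPM in Prol and 157 ± 24 in Sen(IR).

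**Figure D2:**
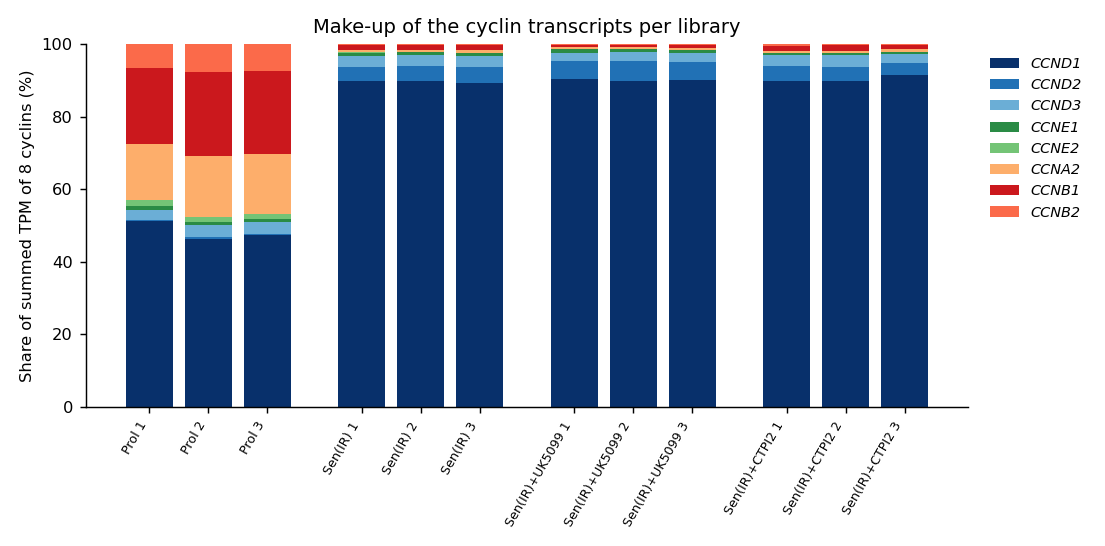
Share of each cyclin in the summed TPM of the 8 cyclins (percent), 1 bar per library. CCND1 takes 46.3 to 51.1% in Prol and 89.3 to 91.5% in the irradiated libraries, where the CCNA2 and B-type bands shrink to slivers.

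UK5099 lowered the 6 transcripts that had fallen after irradiation further, and CCND3, which had risen. Against Sen(IR), 7 of the 10 members were called lower and 0 higher, where 12.1% of all genes tested were called lower and 8.76% higher. For the 0 called higher, no member had a positive log2 fold change and none was higher at an unadjusted p under 0.05 or by DESeq2. Groups did not overlap for 8 members and for 56.6% of all genes tested, and the median log2 fold change was -0.76 over the members and 0.0099 over all genes. Summed CPM of the 7 fibroblast markers, all detected, was also lower with UK5099 (13400 to 14800, against 23800 to 24900 in Sen(IR)), and its part in these results was not tested.

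CDK1 fell most. Its libraries held 1.41, 1.04 and 1.47 CPM with UK5099, from 34, 28 and 38 reads, against 191, 151 and 191 reads in Sen(IR). This was a 6.39-fold fall (log2 fold change -2.68, SE 0.2, adjusted p 2.45e-10), and all 3 libraries were below all Sen(IR) libraries. CDK2, at 15.6, 14.2 and 14.5 CPM, fell by 1.59-fold (log2 fold change -0.67, SE 0.0869, adjusted p 1.45e-06). Accordingly CDK2 TPM per CDK1 TPM was 11.6 ± 1.99 (SD, n = 3), with a lowest library of 9.9 against a highest of 3.34 in Sen(IR).

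CCNE2 had the next largest fall. It stood at 1.28, 1.82 and 1.74 CPM, from 31, 49 and 45 reads, 3.31-fold below Sen(IR) (log2 fold change -1.73, SE 0.199, adjusted p 2.7e-07). Here the overlapping INTS8 went the other way, from 34.4 to 50.7 CPM (log2 fold change 0.56, adjusted p 9.12e-08). CCNE1, at 12.9, 11.5 and 11.8 CPM, overlapped Sen(IR) (log2 fold change -0.12, 95% interval -0.35 to 0.12, adjusted p 0.421). With this, CCNE1 held 93.0% ± 1.53 of the E-type TPM (SD, n = 3).

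Of the mitotic cyclins, CCNB2 fell by 2.77-fold to 2.61, 2.86 and 2.56 CPM (log2 fold change -1.47, SE 0.137, adjusted p 9.94e-09). CCNB1 fell by 2.13-fold to 11.2, 11.4 and 13.1 CPM (log2 fold change -1.09, SE 0.0806, adjusted p 1.93e-10). CCNA2 fell by 1.69-fold to 7.08, 7.31 and 7.56 CPM (log2 fold change -0.76, SE 0.109, adjusted p 6.14e-06), while the overlapping EXOSC9 stood at 17.9 against 17.8 CPM. No library with UK5099 reached the lowest Sen(IR) library for any of these cyclins. Per CDK1 TPM there were 14.9 ± 2.47 CCNB1 TPM, against 4.95 ± 0.702 in Sen(IR), without overlap, whereas CCNA2 per CDK2 was 0.702 ± 0.0513 against 0.745 ± 0.098, with overlap.

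The D-type cyclins responded unequally. CCND3 fell by 1.7-fold to 81.4, 86 and 79.2 CPM (log2 fold change -0.77, SE 0.0601, adjusted p 5.48e-10). That placed it among the Prol libraries (log2 fold change against Prol 0.029, 95% interval -0.10 to 0.16, adjusted p 0.676), a difference whose sign turned on leaving out Prol replicate 2 (-0.029) or Sen(IR)+UK5099 replicate 2 (-0.0046). CCND1, at 2500, 2593 and 2461 CPM, was below every Sen(IR) library, but its log2 fold change of -0.39 (SE 0.0759, adjusted p 0.000191) did not reach the fold limit. CCND2, at 229, 269 and 224 CPM, overlapped Sen(IR) (log2 fold change -0.11, 95% interval -0.26 to 0.048, adjusted p 0.261).

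**Figure D3:**
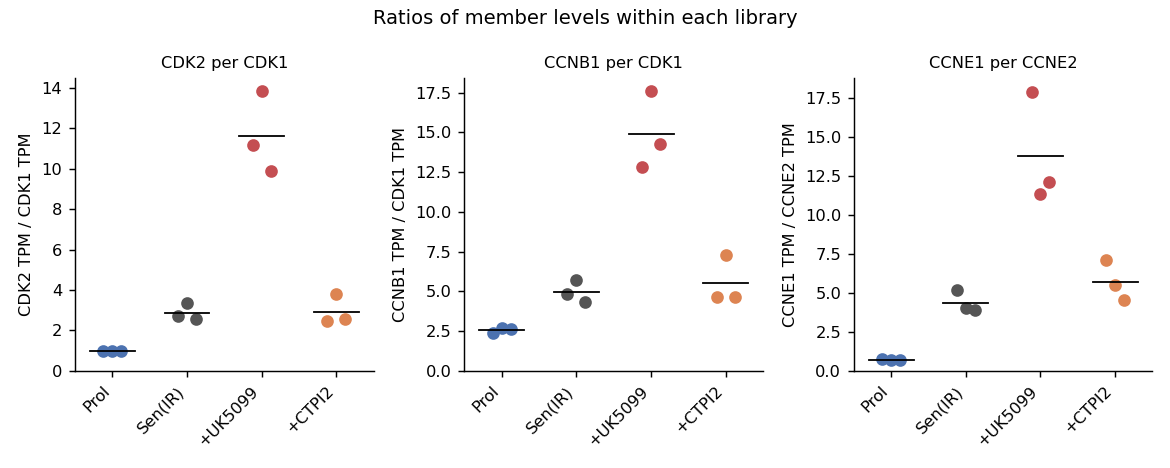
Ratios of TPM within each library by group for CDK2 per CDK1, CCNB1 per CDK1 and CCNE1 per CCNE2, with 1 point per library and a line at the mean of 3. The 3 UK5099 libraries lie above all others in each panel, for CDK2 per CDK1 at 9.9 to 13.8 against at most 3.77 elsewhere.

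Under CTPI2 the members stayed near their Sen(IR) levels. By edgeR 0 of the 10 were called higher and 0 lower, with 0.0185% of all genes tested called higher and 0.148% lower, and the DESeq2 Wald test called 0 as well. At an unadjusted p under 0.05 there were 2, neither past the fold limit. CCNE2, at 3.11, 4.17 and 5.07 CPM, overlapped Sen(IR) (log2 fold change -0.39, 95% interval -0.75 to -0.026, p 0.0366, adjusted p 0.636). CCNB2, at 9.3, 7.59 and 9.78 CPM, overlapped it too (log2 fold change 0.26, 95% interval 0.019 to 0.49, p 0.0355, adjusted p 0.633).

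The intervals show what size of change remained possible. For CDK1, at 9.3, 5.98 and 8.66 CPM, the log2 fold change was -0.067 (95% interval -0.37 to 0.23, adjusted p 0.97). CCNA2, at 12.4, 11.4 and 14.5 CPM, gave 0.045 (-0.17 to 0.26, adjusted p 0.972), and CCNB1, at 26.9, 27.1 and 24.9 CPM, gave 0.051 (-0.10 to 0.21, adjusted p 0.947). CDK2, at 22.6, 22.5 and 22.1 CPM, was the only member whose groups did not overlap, against 15.1% of all genes tested, with a log2 fold change of -0.068 (-0.24 to 0.11, adjusted p 0.932). CCND1 stood at 3407, 3291 and 3954 CPM (log2 fold change 0.10, -0.056 to 0.26, adjusted p 0.861). CCND2 (260, 238 and 231 CPM) gave -0.092 (-0.25 to 0.062, adjusted p 0.882), CCND3 (134, 140 and 132 CPM) gave -0.046 (-0.17 to 0.077, adjusted p 0.938), and CCNE1 (12.4, 12.8 and 12.8 CPM) gave -0.049 (-0.29 to 0.19, adjusted p 0.972). Apart from the lower bound for CCNE2, no interval reached the fold limit of 0.5 in either direction.

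**Figure D4:**
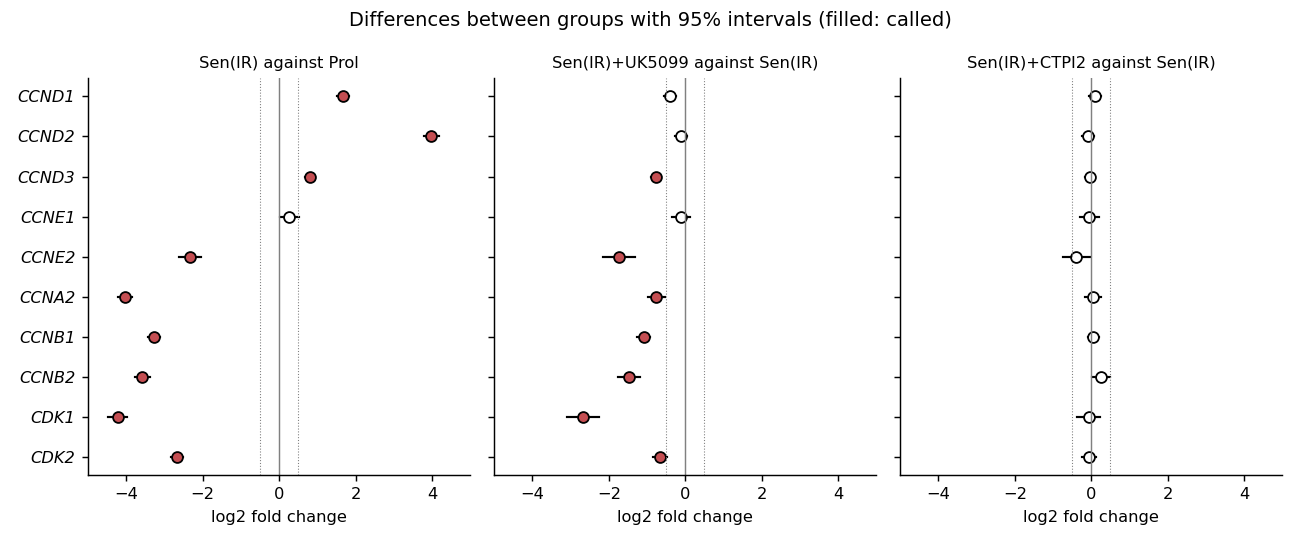
Log2 fold change of each gene in 3 comparisons, with 95% intervals, filled where called and with dotted lines at the fold limits of 0.5. Under CTPI2 no gene is filled, and the intervals include 0 except for CCNE2 (-0.75 to -0.026) and CCNB2 (0.019 to 0.49). Under UK5099 7 genes are filled below 0, with CDK1 at -2.68.

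The inhibitors were also compared directly, which tests the difference between their effects. With UK5099 against CTPI2, 7 members were called lower (11.7% of all genes tested were called lower) and 0 higher (8.2% of all genes), and none was higher at an unadjusted p under 0.05 or by DESeq2. The log2 fold change was -2.61 for CDK1 (SE 0.199, adjusted p 4.28e-10), -1.73 for CCNB2 (SE 0.132, adjusted p 4.29e-10), -1.34 for CCNE2 (SE 0.205, adjusted p 1.46e-05) and -1.14 for CCNB1 (SE 0.0797, adjusted p 9.08e-11). Smaller falls were called for CCNA2 (-0.80), CCND3 (-0.72) and CDK2 (-0.60), the largest adjusted p among them being 6.58e-06. CCND1 lay at the limit and was not called, with a log2 fold change of -0.50 (SE 0.0759, adjusted p 1.44e-05). It was called when Sen(IR)+CTPI2 replicate 1 (-0.53), Sen(IR)+CTPI2 replicate 2 (-0.55) or Sen(IR)+UK5099 replicate 2 (-0.52) was left out. CCND2 and CCNE1 overlapped between the inhibitors, and doses and targets of the compounds differ.

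Against Prol, UK5099 libraries had 2 members called higher (26.9% of all genes tested) and 6 called lower (26.2%). The fall of CDK1 from Prol was 119-fold (log2 fold change -6.89, SE 0.152), that of CCNB2 33.1-fold, of CCNA2 27.4-fold, of CCNB1 20.8-fold, of CCNE2 16.7-fold and of CDK2 10.2-fold. CCND2 remained 14.7-fold and CCND1 2.42-fold above Prol. With CTPI2 3 members were called higher than Prol (24.8% of all genes tested) and 6 lower (21.9%), the same genes in each direction as in Sen(IR). These comparisons share their Prol libraries with that of Sen(IR) against Prol.

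CDK4 and CDK6, the kinases that D-type cyclins activate, did not rise with them after irradiation. CDK4 stood at 104 ± 6.75 CPM (SD, n = 3) in Prol and fell to 50.6 ± 0.477 in Sen(IR) (log2 fold change -1.03, SE 0.0612, adjusted p 1.03e-12). With UK5099 it was at 41.5 ± 2.13 CPM, a difference from Sen(IR) under the fold limit (log2 fold change -0.29, adjusted p 0.000718). CDK6 stood at 165 ± 9.73 CPM in Prol and 173 ± 6.14 in Sen(IR) (log2 fold change 0.069, adjusted p 0.462), and fell to 114 ± 6.33 with UK5099 (log2 fold change -0.61, SE 0.0816, adjusted p 2.24e-06). Under CTPI2 they measured 51.3 ± 2.52 and 182 ± 30.9 CPM.

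Across 34 other cyclins and CDKs, most of which act in transcription or outside the division cycle, 31 were tested. Of these 3 were higher and 6 lower in Sen(IR) than in Prol, and 1 was higher and 2 lower with UK5099 than in Sen(IR). Of all genes tested, 24.8% were called higher and 22.4% lower in the former comparison, and 8.76% higher and 12.1% lower in the latter, so these counts are at or below the background. Without Sen(IR)+UK5099 replicate 2, the latter counts were 2 higher and 1 lower. The medians were -0.14 and 0.070 on the log2 fold change scale. CCNF, a cyclin that marks proteins for destruction rather than activating a kinase, fell after irradiation (log2 fold change -3.27, SE 0.13, adjusted p 8.46e-16) and again with UK5099 (-0.59, SE 0.17, adjusted p 0.00664). CCNI fell after irradiation (-0.78, SE 0.0497, adjusted p 3.8e-12). CCNG2, an atypical cyclin linked to cell-cycle exit, rose from 29.1 ± 5.52 CPM in Prol to 79.9 ± 5.62 in Sen(IR) (log2 fold change 1.46, adjusted p 2.02e-12) and to 171 ± 3.71 with UK5099 (1.10 against Sen(IR), adjusted p 2.9e-10). CDK20 rose after irradiation (0.64, adjusted p 0.000415). CCNO was called higher too, at a mean of 0.406 CPM against 0.0124 in Prol, where 3 counts are worth 0.1115 to 0.1288 CPM, so no fold is given.

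Regulators of CDK activity, which include kinases, phosphatases, CDK-binding subunits and factors of cyclin destruction, moved largely with the S-phase and mitotic members after irradiation. With UK5099 only a part of them did. Of 21 tested, 18 were lower and 1 higher in Sen(IR) than in Prol (median log2 fold change -2.42), and 11 were lower and 0 higher with UK5099 than in Sen(IR) (median -0.54). Of all genes tested, 22.4% were called lower and 24.8% higher in the former comparison, and 12.1% lower and 8.76% higher in the latter. The 10 regulators not called with UK5099 lay on both sides of 0. Their log2 fold changes ran from -0.38 (adjusted p 0.0126) to 0.36 (adjusted p 9.7e-05), within the fold limit. The falls after irradiation were largest for PLK1, a kinase of mitotic entry (log2 fold change -4.88, SE 0.139, adjusted p 2.41e-18), UBE2C, a ubiquitin-conjugating enzyme of the anaphase-promoting complex (-4.71, SE 0.163, adjusted p 7.06e-17), and CDC20, the activator of that complex (-4.64, SE 0.102, adjusted p 4.32e-20). BTRC, a substrate receptor of an SCF ubiquitin ligase, rose (1.07, SE 0.0613, adjusted p 6.06e-13). With UK5099, UBE2C went from 2.25 to 0.239 CPM (log2 fold change -3.16, SE 0.373, adjusted p 3.59e-07), CDC20 from 6.11 to 0.954 CPM (-2.67, SE 0.185, adjusted p 6.91e-11) and the phosphatase CDC25C from 1.48 to 0.416 CPM (-1.82, SE 0.255, adjusted p 4.11e-06). The UBE2C level with UK5099 had an SD of 0.25 CPM (n = 3), above its mean. In those libraries 3 counts were worth 0.1113 to 0.1242 CPM, so this level rests on few reads.

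Among 16 regulators of cyclin transcription, 11 were lower and 0 higher in Sen(IR) than in Prol (median log2 fold change -0.98), although 1 was called higher by DESeq2, under RLE or upper-quartile scaling, and without Prol replicate 1 or 2 or Sen(IR) replicate 1 or 3. Of all genes tested, 22.4% were called lower and 24.8% higher in Sen(IR) than in Prol. MYBL2 fell from 77.4 ± 5.53 to 2.82 ± 0.297 CPM (log2 fold change -4.78, SE 0.121, adjusted p 3.76e-19) and FOXM1 from 162 ± 12.4 to 11.2 ± 0.213 CPM (-3.85, SE 0.0767, adjusted p 8.39e-21). E2F2, an activator of G1/S genes, fell as well (-4.50, SE 0.219, adjusted p 3.06e-14). With UK5099, 3 were lower than in Sen(IR), these being MYBL2 at 0.278 ± 0.154 CPM (-3.34, SE 0.28, adjusted p 1.67e-09), E2F2 at 0.118 CPM, a level worth about 3 counts a library (-2.05, SE 0.471, adjusted p 0.00115), and FOXM1 at 4.33 CPM (-1.37, SE 0.102, adjusted p 2.14e-10). The MYBL2 level with UK5099 also rests on few reads. The 2 called higher were TFDP2, a partner of E2F factors (0.59, SE 0.0707, adjusted p 4.31e-07), and LIN52, a MuvB subunit (0.51, SE 0.0928, adjusted p 0.000107), and only 1 was called without Sen(IR) replicate 2 or 3 or without Sen(IR)+UK5099 replicate 1. Over all genes tested, 12.1% were called lower and 8.76% higher in this comparison, so 3 and 2 of 16 are near the background. Under CTPI2 edgeR called none of the 3 lists' genes against Sen(IR), with 4, 2 and 0 at an unadjusted p under 0.05 in the order above.

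**Figure D5:**
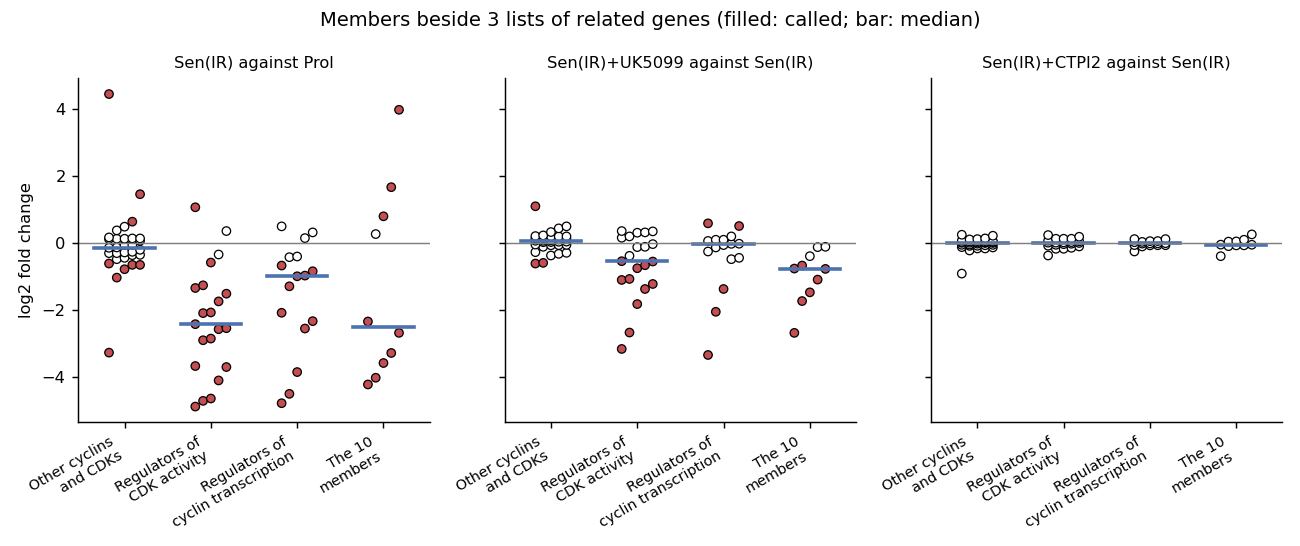
Log2 fold change of each tested gene of 3 related lists and of the 10 members in 3 comparisons, filled where called, with a bar at each median. The medians of the members and of the regulators of CDK activity lie below 0 after irradiation (-2.51 and -2.42) and under UK5099. After irradiation 4 of the 10 members lie above 0. All medians lie near 0 under CTPI2. The highest point on the left, CCNO, rests on very few reads.

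Over the 12 libraries the log2 CPM of CCNA2, CCNB1, CCNB2, CDK1 and CDK2 moved together, with pairwise Pearson correlations of 0.969 to 0.996, while CCND3 and CDK1 had -0.233. The genes most like each member among 12590 with a mean log2 CPM above 1 were TRIP13, EIF2S1 and TOP2A for CDK1 (r = 0.9973 for TRIP13), FAM83D, UHRF1 and CTPS1 for CDK2 (0.9985 for FAM83D), CENPE, DBF4 and CDCA7 for CCNA2 (0.9983 for CENPE), and MYBL1, FAM111B and LRRC8C for CCNE2 (0.9962 for MYBL1). For CCNB1 they were ACTA2, the smooth muscle actin, SPAG5 and FOXM1 (0.9990 for ACTA2), and for CCNB2 CDCA2, PTTG1 and PRC1 (0.9981 for CDCA2). The likest to CCND1 were DTNA, KDSR and MFSD1 (0.9947 for DTNA), to CCND2 RTN4, ASAH1 and UXS1 (0.9984 for RTN4), and to CCND3 AC073283.2, SRPRB and NFKB2 (0.9921 for AC073283.2). CCNE1, which differed least between groups, had the weakest match, PCDH10 at 0.9120. The 12 points fall into 4 groups and share their libraries, so these values describe steps between groups.

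Library totals ran from 20597736 to 28245693 counts, and in no pair of replicates did the counts differ by less than sampling noise. The 7 fibroblast markers summed to 13400 to 26200 CPM over the libraries, and the 9 markers of epithelium, endothelium and leukocytes to 1.9 to 4.13 CPM, with KRT5 and CD3E at no more than 1 count in any library. CCND1, CCND2 and CDK2 share 10.4%, 13.8% and 16.8% of their exon bases with neighbouring genes. For CCND1 and CDK2 these genes lie on the opposite strand. CCND2 also overlaps a gene on its own strand, whose part in the CCND2 value was not tested. The labels do not say whether replicates were separate cultures, while the study describes its RNA sequencing replicates as independent experiments or conditions. The p-values set differences between groups against the spread between these libraries, estimated jointly over the 4 groups.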

How the data were processed

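Per the labels and methods, the authors used Trimmomatic 0.36 for trimming, STAR 2.5.2b for alignment to GRCh38, and featureCounts (Subread 1.5.2) to assign uniquely mapped exon reads to genes. The deposited table holds these raw counts per gene, without normalization. Multi-mapping reads are thus absent, which can lower genes with close copies. From the counts, edgeR 4.0.16 in R 4.3.3 (filterByExpr, TMM scaling, glmQLFit and glmQLFTest) was fitted to all 12 libraries by group without a replicate term, and p-values were adjusted over 16251 genes. These hold 99.91% of the counts, and 3 counts were worth 0.1113 to 0.1471 CPM. SE is the absolute log2 fold change over the square root of F. TPM used merged exon lengths from GENCODE on GRCh38. The fits were tested on simulated data. Alternatives were DESeq2 1.42.0, an unadjusted p limit, a fold limit of 1, RLE and upper-quartile scaling, no filter, only the 2 compared groups, a replicate block and leaving out each library. Named genes were all 10 members, CDK4 and CDK6, up to 3 called genes with the largest change per list and direction, and the 3 genes most correlated with each member. Members and lists were chosen with earlier results of these data known.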

Additional observations from a re-analysis of the deposited data

How the results depend on the processing

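The counts of members called lower or higher in the 6 comparisons were the same under the DESeq2 Wald test, an unadjusted p limit, RLE and upper-quartile scaling, no filter and only the 2 compared groups. A fold limit of 1 left 4 members called lower with UK5099 against Sen(IR) and 4 against Sen(IR)+CTPI2, in place of 7 each, by its construction, and 2 called higher than Prol in Sen(IR) and in Sen(IR)+CTPI2, in place of 3 each, with the call of CCND3 (0.80 in Sen(IR)) lost. It left 7 of the regulators of CDK activity lower with UK5099, in place of 11, and 7 of the regulators of cyclin transcription lower in Sen(IR), also in place of 11. At this limit, of 16251 genes, 1511 were called in either direction with UK5099 against Sen(IR) and 1417 against Sen(IR)+CTPI2. Against Prol, 4030 were called in Sen(IR) and 4028 in Sen(IR)+CTPI2. Upper-quartile scaling moved the median of all genes by 0.121 (log2) in Sen(IR) against Prol, 0.14 in Sen(IR)+UK5099 against Prol and 0.111 in Sen(IR)+CTPI2 against Prol. It turned the sign of CCND2 between the inhibitors (0.014), an uncalled difference. Leaving out each library in turn gave 7 to 8 members lower with UK5099 than with CTPI2 and changed no other count of members. It turned the sign of 4 uncalled differences, which ranged from -0.10 to 0.037 (CCND2, UK5099 against CTPI2), from -0.11 to 0.0041 (CCNE1, CTPI2 against Sen(IR)), from -0.054 to 0.12 (CCNA2, the same comparison) and from -0.19 to 0.11 (CDK1, likewise). The replicate block gave 7 members lower with UK5099 than in Sen(IR) and changed no count of members. No pairing of libraries by number was detected: of 18 pairs of libraries with the same number, 1 had a correlation of deviations over 0.1, and 5 of 12 libraries correlated best with their own number. With 3 libraries a group, these values cannot exclude such a pairing. With 28 to 49 reads a library, CDK1 and CCNE2 under UK5099 have the largest SE among the members against Sen(IR).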
